A study of Mus musculus with 10 samples.

Results

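The genes described here encode receptors for the transmitters glutamate and GABA, the scaffold proteins that hold such receptors at the synapse, and the adhesion proteins that join its 2 sides. They were chosen by symbol from a table of transcript levels in the developing mouse neocortex, as every gene whose name begins with the family names of the glutamate receptors (Gria, Grin, Grik, Grm), GABA receptors (Gabr, Gabbr), scaffolds and their regulators (among them Shank, Dlg, Dlgap, Homer, Iqsec and Gphn) or adhesion proteins (Nlgn, Nrxn, Lrrtm). Earlier results of these data were known when the genes were chosen, but the choice by symbol used no measured value. It found 34 of the 6147 genes in the table, with at least 1 in each family searched except Lrrtm; Lrrtm genes, and the other members of the families described, were not analysed here. All 34 passed the filter on low values, a mean of at least 1 TPM over all libraries.

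RNA came from neocortex of wild-type CD1 mice, an outbred strain, at 5 stages: P0, which is the day of birth, and before it E12.5, E14, E15.5 and E17, where the number counts days of embryonic development. Every stage had 2 libraries of polyadenylated RNA, which the design text calls biological duplicates, and no mouse carried an allele or received an agent named in the labels. RNA was taken from whole tissue lysate after it had been cleared by centrifugation, so all cell types of the tissue were mixed, and RNA that went with the pellet was not measured. The values are TPM, the share of a gene's transcripts per length on a fixed total, so levels may be compared between genes.

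At an excitatory synapse, glutamate opens AMPA, kainate and NMDA receptors, which are ion channels, and acts on metabotropic receptors, which signal through G proteins. The Dlg, Dlgap, Shank and Homer proteins form successive layers of the scaffold beneath these receptors. At an inhibitory synapse, GABA opens GABA-A receptors, which are chloride channels anchored by gephyrin, and acts on GABA-B receptors, which signal through G proteins. Neuroligins on the postsynaptic side bind neurexins on the presynaptic side, so the neurexins in this group are presynaptic by function. In the neocortex, few synapses exist before birth, and several of these genes are also known to be expressed in growing neurites or in progenitor cells.

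Most of these genes were higher at birth than at E12.5. In limma's test over all 10 libraries, 27 of the 34 rose from E12.5 to P0 and 4 fell (Benjamini-Hochberg adjusted p under 0.05, adjusted over 6048 genes), whereas 27.1% of all genes tested rose and 51% fell, 78.2% in all. The median change of the 34 genes was 1.71 on the log2(TPM + 1) scale, against -0.27 for all genes tested. The largest rise was that of Gabra5, a GABA-A receptor subunit (4.44), and the largest fall that of Homer3, a scaffold protein (-1.37). The genes that fell were Homer3, Dlg1, Grik2 and Homer2, and Iqsec1 (0.22), Dlg3 (-0.00) and Dlg5 (-0.28) did not pass the test. Summed over the 34 genes, the level was 725 and 742 TPM in the E12.5 libraries, 826 and 846 at E14, 1317 and 1313 at E15.5, 2227 and 1706 at E17 and 1846 and 1932 at P0. The sum was thus higher in each library of E15.5, E17 and P0 than in any of E12.5 or E14, and the P0 libraries lay between the E17 ones. In bulk tissue, a change in the number of cells of a type and a change in RNA per cell cannot be told apart.

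**Figure D1:**
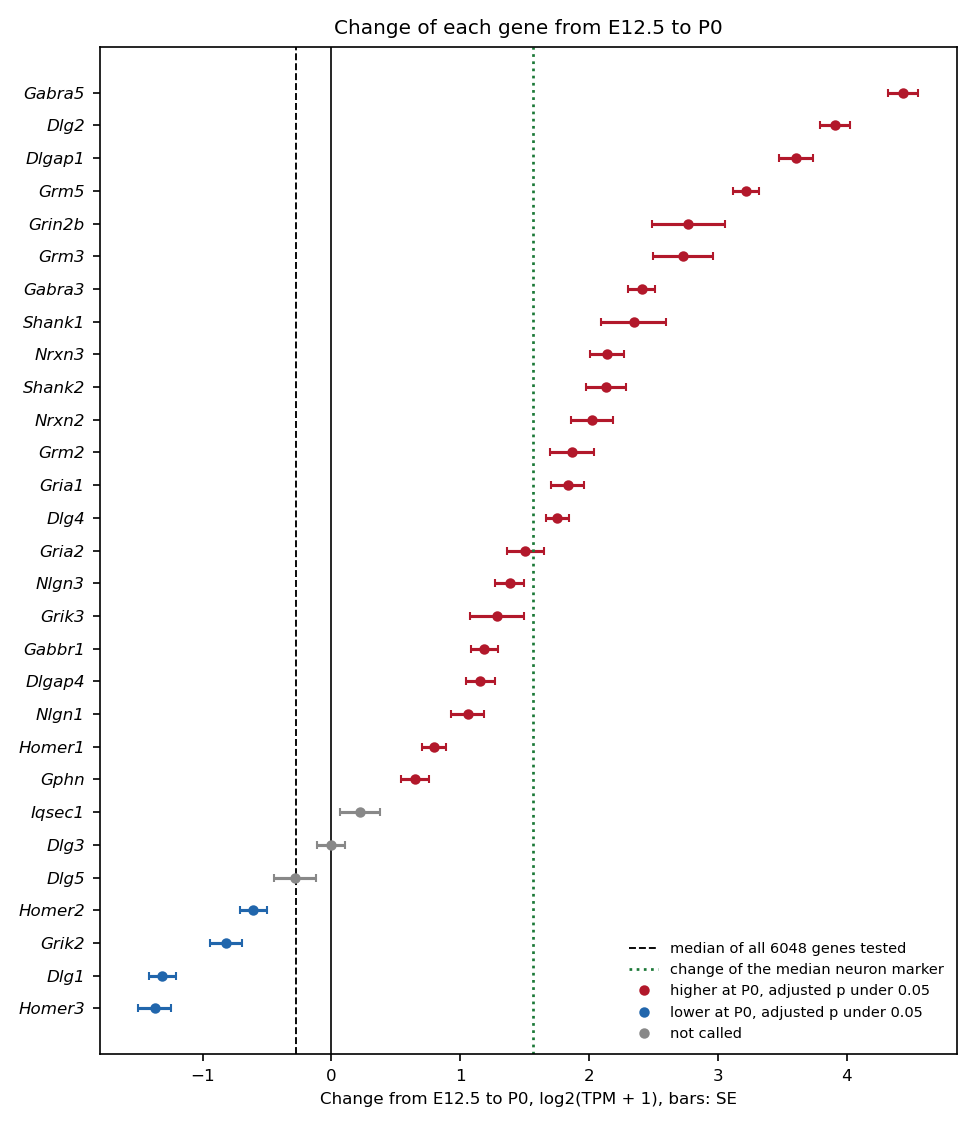
Change of 29 of the 34 genes from E12.5 to P0 on the log2(TPM + 1) scale, with its standard error as a bar (2 libraries per stage). Red marks the 22 of these genes that rose, blue the 4 that fell and grey the 3 not called. The dashed line at -0.27 is the median of all 6048 genes tested and the dotted line at 1.56 the change of the median neuron marker in a library.

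Neuron markers rose over the same stages. Of 13 markers listed, such as Tubb3 and Map2, 12 were in the table and all 12 rose from E12.5 to P0. Of all genes tested, 27.1% rose and 51% fell over this span. Their sum was 2845 and 2908 TPM at E12.5, 4001 and 3861 at E14, 8248 and 8384 at E15.5, 8832 and 8950 at E17, and 10351 and 10969 at P0. The median marker of a library rose by 1.56 on the log2 scale, and 18 of the 34 receptor, scaffold and adhesion genes changed by more than that. The markers' own changes had a median of 1.97, which 14 of the 34 genes exceeded. Of 20 dividing cell markers listed, 17 were in the table and all 17 fell. Their sum was 1577 and 1584 TPM at E12.5 and 79.7 and 89.6 at P0. Of 13 progenitor markers listed, 10 were in the table, of which 9 fell and 1 rose (Fabp7, 0.94). Meningeal markers summed to between 718 and 931 TPM in the E12.5 and E14 libraries and to between 40.3 and 134 afterwards, with Col1a1, Col1a2, Col3a1 and Lum at or below 1.91 TPM from E15.5 on. Markers of red blood cells and choroid plexus fell from between 3378 and 4793 TPM to between 4.95 and 13.7 at the same step. Of 10 vascular markers listed only Cdh5 was in the table, and it fell from between 9.26 and 15.3 to between 1.02 and 3.30. Of the glial lists, 7 of the 8 astrocyte markers in the table rose and 1 fell, and both tested oligodendrocyte lineage markers, of 9 listed, rose. Of 10 microglia markers listed only C1qb was in the table, at 7.96 and 8.23 TPM at E12.5 and 7.81 and 7.07 at P0. The part that these cell types have in the changes reported here was not tested.

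The upstream sequences of 3 genes with contrasting courses are shown first: Gabra5, with the largest rise, Gria2, an AMPA receptor subunit that peaked at E17, and Dlg1, a scaffold gene that fell. Each is the 250 bases before a RefSeq transcript start in GRCm38.p6, 5′ to 3′ on the gene's strand, with CG dinucleotides in capitals. The Gabra5 window is chr7:57510060-57510309 (minus strand), the Gria2 window chr3:80802836-80803085 (minus strand) and the Dlg1 window chr16:31663193-31663442 (plus strand). The Dlg1 window lies directly before the most upstream of the starts listed for that gene, and its other starts lie further downstream.
Gabra5: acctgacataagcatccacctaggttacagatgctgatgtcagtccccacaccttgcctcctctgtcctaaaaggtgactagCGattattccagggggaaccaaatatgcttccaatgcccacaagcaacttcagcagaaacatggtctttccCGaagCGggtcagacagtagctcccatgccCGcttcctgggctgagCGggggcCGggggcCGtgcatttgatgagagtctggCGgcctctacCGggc
Gria2: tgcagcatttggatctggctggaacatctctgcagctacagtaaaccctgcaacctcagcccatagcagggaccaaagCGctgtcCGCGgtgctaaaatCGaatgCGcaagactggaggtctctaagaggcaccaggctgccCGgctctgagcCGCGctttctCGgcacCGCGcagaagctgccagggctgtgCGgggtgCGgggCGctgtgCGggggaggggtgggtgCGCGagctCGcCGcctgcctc
Dlg1: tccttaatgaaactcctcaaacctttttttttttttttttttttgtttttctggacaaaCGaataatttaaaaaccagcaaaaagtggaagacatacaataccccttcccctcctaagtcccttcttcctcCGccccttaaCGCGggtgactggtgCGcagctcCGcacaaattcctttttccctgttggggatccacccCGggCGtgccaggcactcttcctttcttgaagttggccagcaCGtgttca

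CG dinucleotides numbered 9 in the Gabra5 window, 19 in that of Gria2 and 9 in that of Dlg1. RefSeq gave 38 promoter windows, from 250 bases before to 50 after a start, for 22 of the 34 genes. Their CG counts ranged from 0 (Gabra3) to 50 (Dlgap4 and Grik3), and 19 of the 38 (50%) held at least 13, against 79.7% of the promoters of all genes tested and 37.9% of all mouse promoters in the table. The letters TATAAA, searched on both strands, were found in 13.2% of these 38 windows (5 windows of Dlg1, Dlg2, Gabra3 and Homer2), 6.24% of the promoters of genes tested and 13.6% of all promoters. GGGCGG, searched in the same way, was found in 42.1%, 66.4% and 35.7%. A match describes the letters of the window only.

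Both AMPA receptor subunits in the table rose to E17 and fell by birth. These subunits form the channel that carries most fast excitatory transmission, and Gria2 is the subunit whose edited form keeps calcium out. Gria1 was at 12.502 and 12.408 TPM in the E12.5 libraries, 21.7 and 22.5 at E14, 46.2 and 46.5 at E15.5, 80.4 and 58.0 at E17 and 48.9 and 45.1 at P0. Gria2 was at 27.6 and 24.6 TPM, 28.5 and 39.98, 57.6 and 58.3, 126 and 103, and 75.2 and 76.5 at the same stages. For both genes the E17 libraries were the highest; the P0 libraries of Gria1 overlapped those of E15.5, and those of Gria2 lay above them. From E12.5 to P0 Gria1 rose by 1.83 (SE 0.13, adjusted p 1.14e-07) and Gria2 by 1.51 (SE 0.14, adjusted p 1.39e-06). From E17 to P0 Gria1 fell by 0.53 (SE 0.13, adjusted p 0.00791) and Gria2 by 0.58 (SE 0.14, adjusted p 0.00788), in limma's test.

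The NMDA receptor subunit Grin2b, the glutamate-binding subunit that predominates in the embryonic brain, rose in the same period. It was at 9.60 and 9.28 TPM at E12.5, 16.3 and 17.1 at E14, 62.7 and 63.1 at E15.5, 191 and 79.2 at E17 and 63.3 and 78.0 at P0. Between E14 and E15.5 it rose by 1.85 (SE 0.28, adjusted p 0.000237), and the 2 E17 libraries differed from one another more than for any other gene of the group. The change from E12.5 to P0 was 2.77 (SE 0.28, adjusted p 2.96e-06). Its fall from E17 to P0 (-0.80, adjusted p 0.0426) was not called without E17 replicate 1 (-0.17, adjusted p 0.218), and it was also not called without P0 replicate 1 (adjusted p 0.243), P0 replicate 2 (0.0951) or any of the E12.5, E14 and E15.5 libraries.

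The 2 kainate receptor subunits went opposite ways over the whole span. Kainate receptors are channels that modulate transmission on both sides of the synapse. Grik2 was at 22.5 and 24.1 TPM at E12.5, 18.8 and 22.3 at E14, 11.2 and 11.3 at E15.5, 22.7 and 18.1 at E17 and 12.9 and 12.6 at P0. Its level thus went down, up and down again: it fell by 0.81 from E14 to E15.5 (adjusted p 0.000228), rose by 0.80 from E15.5 to E17 (adjusted p 0.00142) and fell by 0.63 from E17 to P0 (adjusted p 0.00263). Both falls were called in all 20 alternatives, and the rise in all but the fit with only the 4 libraries of its own stages (adjusted p 0.0588). Grik3 was at 19.4 and 21.0 TPM, 37.4 and 39.9, 75.8 and 74.2, 131 and 69.0, and 48.4 and 52.9. It rose up to E15.5, its E17 libraries lay on either side of those of E15.5, and it fell by 0.90 from E17 to P0 (SE 0.21, adjusted p 0.00665; -0.44 without E17 replicate 1, adjusted p 0.0012). From E12.5 to P0 Grik2 fell by 0.82 (SE 0.12, adjusted p 8.34e-05) and Grik3 rose by 1.29 (SE 0.21, adjusted p 0.000155). Of the summed level of the pair, Grik3 made up 46.2% and 46.6% in the E12.5 libraries and 78.9% and 80.7% in those of P0.

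**Figure D2:**
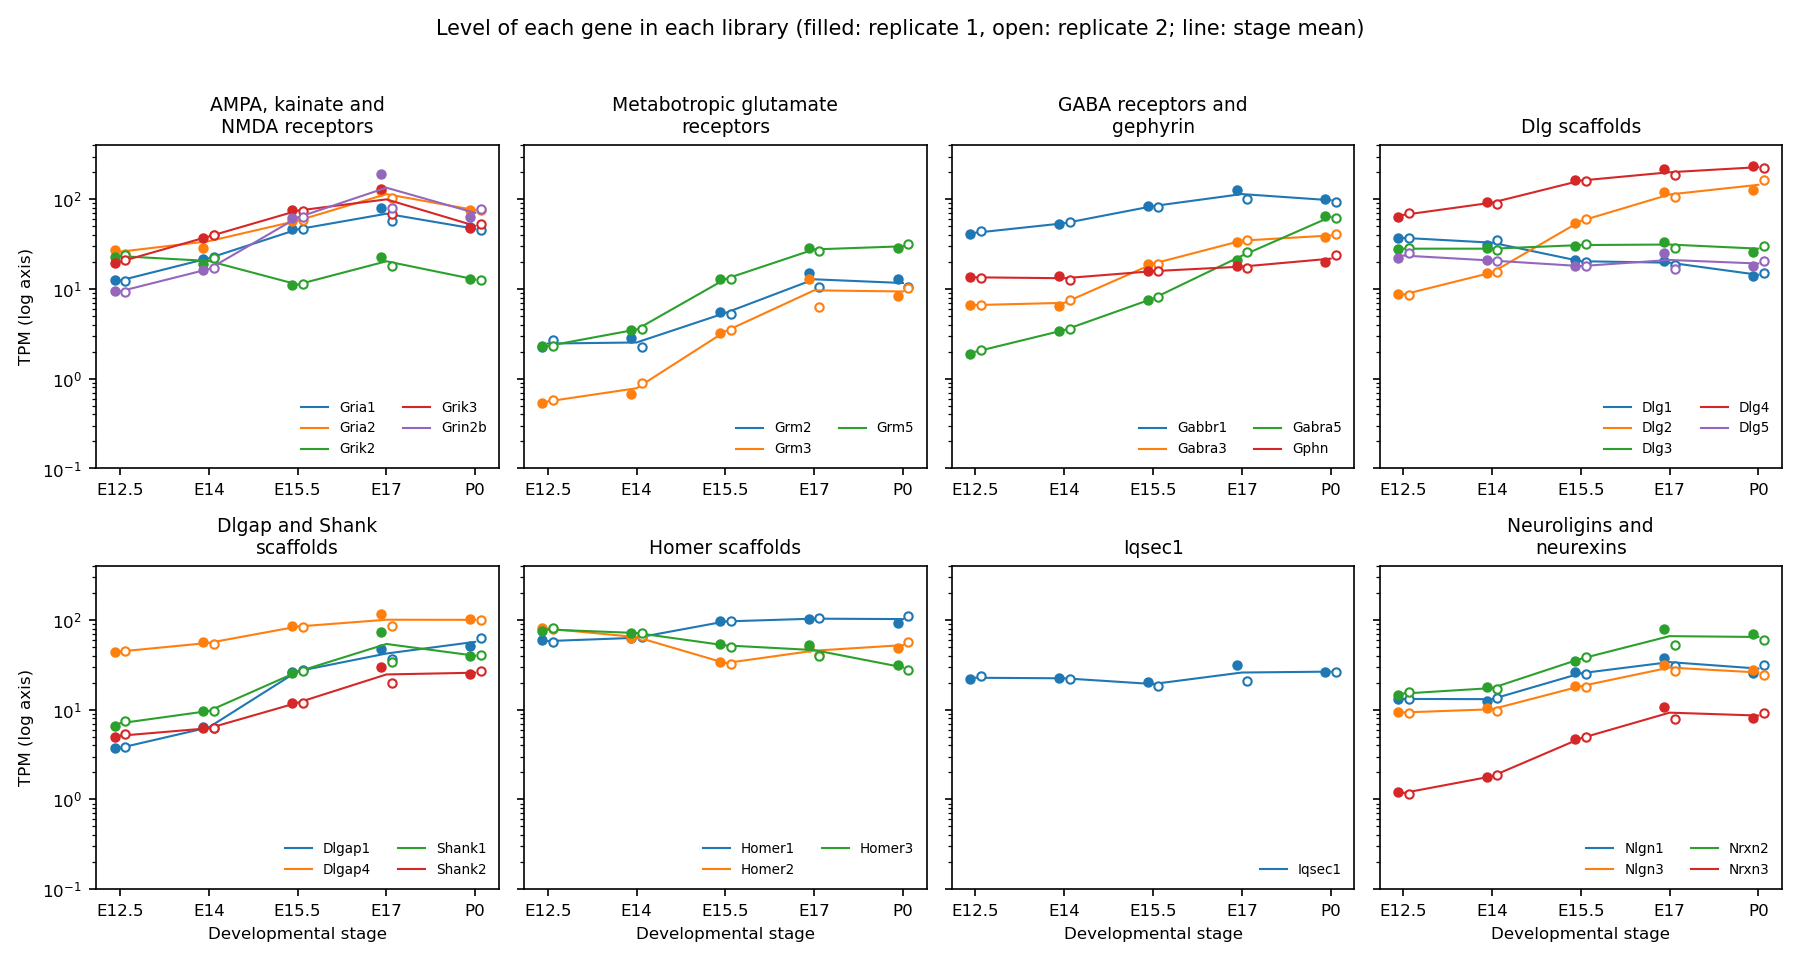
Level in TPM, on a log axis, of 29 of the 34 genes in each of the 10 libraries (filled circles replicate 1, open circles replicate 2, lines stage means), with the genes grouped by family. Most lines rise between E14 and E17, and those of Dlg1, Dlg5 (not called), Homer2, Homer3 and Grik2 end lower than they began. The filled E17 circle of Grin2b stands at 191 TPM against 79.2 for the open one.

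The metabotropic glutamate receptors Grm5, Grm2 and Grm3 all rose from E12.5 to P0. Grm5 belongs to the class that couples to Gq and calcium release, Grm2 and Grm3 to the class that lowers cyclic AMP. Grm5, the highest of them by mean level, was at 2.34 and 2.30 TPM at E12.5, 3.47 and 3.61 at E14, 12.99 and 12.89 at E15.5, 28.8 and 26.6 at E17 and 28.5 and 31.5 at P0. For Grm5 no library of E14, E15.5 or E17 overlapped the stage before it, and the P0 libraries overlapped those of E17. Grm2 was at 2.27 and 2.67 TPM, 2.85 and 2.23, 5.51 and 5.32, 15.3 and 10.4, and 12.9 and 10.5. Grm3 was at 0.541 and 0.577 TPM, 0.672 and 0.896, 3.27 and 3.49, 13.03 and 6.33, and 8.46 and 10.3. The E12.5 and E14 libraries of Grm2 overlapped, Grm3 was under 1 TPM in all libraries of those stages and above it in every later one, and for both genes the E17 and P0 libraries overlapped. From E12.5 to P0 Grm5 rose by 3.22 (SE 0.10, adjusted p 1.57e-10), Grm3 by 2.73 (SE 0.23, adjusted p 5.79e-07) and Grm2 by 1.87 (SE 0.17, adjusted p 1.04e-06). Both Grm2 and Grm3 rose from E14 to E15.5 (0.86 and 1.297) and again from E15.5 to E17 (1.09 and 1.21). On this scale the change of Grm3, which began under 1 TPM, is understated.

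The GABA-A receptor alpha subunits Gabra5 and Gabra3 both rose from E12.5 to P0. A GABA-A receptor holds alpha and beta subunits, which bind GABA between them, and most often a gamma subunit, which is needed for its place at the synapse. The alpha subunit Gabra5, known for receptors outside the synapse, was at 1.89 and 2.12 TPM at E12.5, 3.41 and 3.57 at E14, 7.53 and 8.16 at E15.5, 21.2 and 25.9 at E17 and 65.2 and 62.7 at P0. The gene lies on chromosome 7 (57407672 to 57510059, minus strand, GRCm38). Its libraries did not overlap between any stages, and its mean at P0 was 32.0 times that at E12.5 in TPM (log2 change 4.44, SE 0.12, adjusted p 4.65e-11). It was the only gene of the 34 that rose by over 1 on the log2 scale from E17 to P0 (1.41, SE 0.12, adjusted p 1.27e-05), a rise that was called in all 20 alternatives. Gabra3 was at 6.64 TPM in both E12.5 libraries, 6.51 and 7.54 at E14, 19.3 and 19.1 at E15.5, 33.8 and 35.5 at E17 and 38.0 and 41.2 at P0, and it rose by 2.41 from E12.5 to P0 (SE 0.10, adjusted p 1.49e-09). Its largest step was that from E14 to E15.5 (1.33, adjusted p 1.4e-06). Gabra3 was above Gabra5 in each library up to E17 and below it in both P0 libraries.

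Gabbr1, the GABA-binding subunit of the GABA-B receptor, was at 41.0 and 44.0 TPM at E12.5, 53.1 and 55.4 at E14, 85.2 and 83.3 at E15.5, 128 and 101 at E17 and 102 and 93.6 at P0. It rose by 1.19 (SE 0.10, adjusted p 8.02e-07), and its P0 and E17 libraries overlapped. Gephyrin (Gphn), which anchors GABA-A and glycine receptors and also makes the molybdenum cofactor in many tissues, had the smallest rise of those called from E12.5 to P0, 0.65 (SE 0.11, adjusted p 0.000186). Its level was 13.7 and 13.4 TPM at E12.5, 13.9 and 12.547 at E14, 15.9 and 15.8 at E15.5, 18.3 and 17.3 at E17 and 20.0 and 23.7 at P0. No single step of gephyrin between neighbouring stages passed the test.

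The 5 Dlg genes, which encode membrane-associated guanylate kinase scaffolds, diverged most within a family. Dlg4 (PSD-95), the main scaffold of the excitatory synapse, was the highest of the 34 genes by stage mean from E14 on: it was at 64.3 and 69.9 TPM at E12.5, 94.6 and 89.4 at E14, 164 and 161 at E15.5, 216 and 185 at E17 and 235 and 222 at P0. Dlg2 (PSD-93) went from 8.81 and 8.56 TPM at E12.5 through 15.3 in both E14 libraries, 54.9 and 60.0 at E15.5 and 120.4 and 107 at E17 to 128 and 163 at P0. No stages overlapped for either gene, and the changes from E12.5 to P0 were 1.75 for Dlg4 (SE 0.09, adjusted p 5.2e-09) and 3.91 for Dlg2 (SE 0.11, adjusted p 8.1e-11). Dlg1 (SAP97), a scaffold also known at epithelial junctions, was at 37.5 and 37.0 TPM, 30.7 and 35.2, 20.9 and 20.0, 20.8 and 18.6, and 13.8 and 15.0. It was highest at E12.5 and lowest at P0 (-1.31, SE 0.10, adjusted p 3.11e-07), and its E15.5 and E17 libraries overlapped.

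Dlg3 (SAP102), a scaffold known to be prominent early in development, was at 27.6 and 28.8 TPM at E12.5, 28.9 and 27.5 at E14, 30.2 and 31.7 at E15.5, 33.9 and 28.9 at E17 and 25.9 and 30.6 at P0. The E12.5 and P0 libraries overlapped, and the F test over the 5 stages did not pass either (adjusted p 0.48). The change of Dlg3 from E12.5 to P0 was -0.00 (SE 0.11, adjusted p 0.976) as deposited, but 0.28 under quantile normalization (adjusted p 0.00916) and 0.26 under median-of-ratios scaling (adjusted p 0.0175), which both centre the libraries on the median gene. Dlg5, a polarity protein, was at 22.1 and 25.3 TPM at E12.5 and 18.0 and 20.6 at P0 (-0.28, SE 0.16, adjusted p 0.131; 0.03 under quantile normalization). Dlg5 was called lower, at the same -0.28, without E17 replicate 1 (adjusted p 0.00693), without E17 replicate 2 (0.00681), with array weights (0.0232) and with only the 4 libraries of the 2 stages (0.0156). The log2 ratio of Dlg4 to Dlg3 within a library, from values of TPM + 1, was 1.19 and 1.25 at E12.5, 1.68 and 1.66 at E14, 2.40 and 2.30 at E15.5, 2.64 in both E17 libraries and 3.13 and 2.82 at P0. It differed between the stages (exact permutation of the stage labels with the F statistic, p 0.00106, the smallest that 945 arrangements can give; adjusted over 3 ratios 0.00317).

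Within the summed level of the 5 Dlg genes, the share of Dlg2 was 5.50% and 5.05% at E12.5 and 30.5% and 36.0% at P0, and that of Dlg1 23.4% and 21.8% at E12.5 and 3.29% and 3.32% at P0. Dlg4 made up 40.1% and 41.2% at E12.5, and between 47.6% and 56.9% in every later library. By level, Dlg1 thus stood above Dlg2 in each library of E12.5 and E14 and below it in each library of E15.5, E17 and P0.

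**Figure D3:**
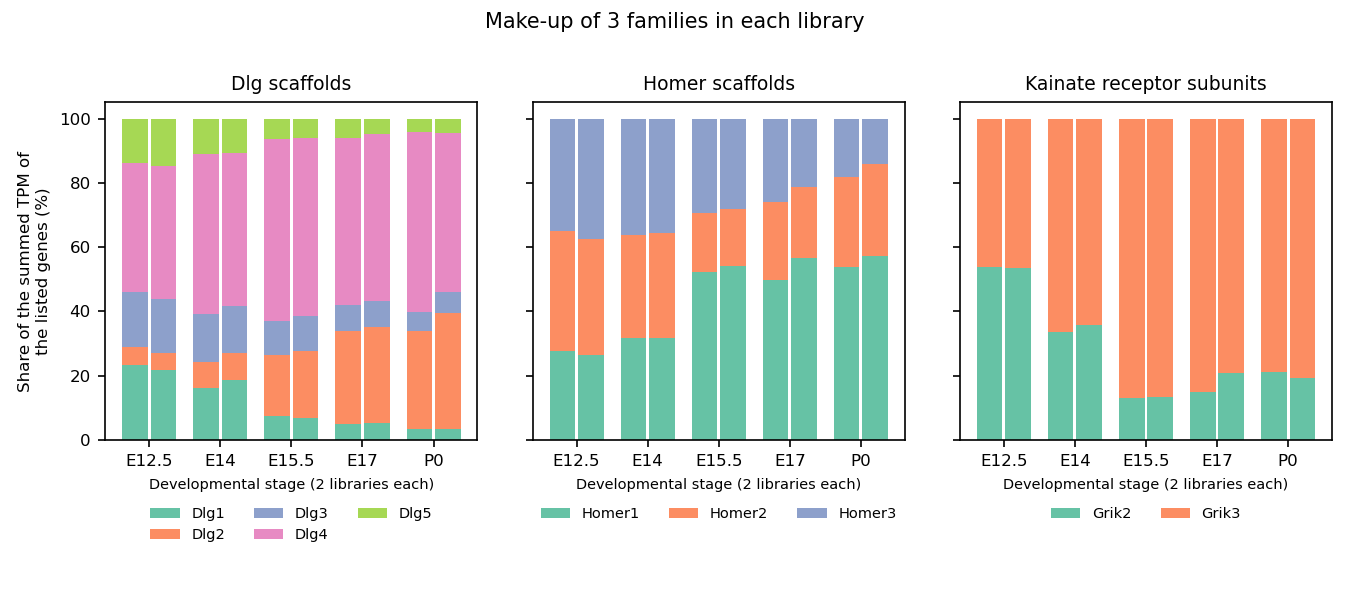
Share in percent of each gene in the summed TPM of its family, for the Dlg scaffolds, the Homer scaffolds and the kainate receptor subunits, with 1 bar for each of the 10 libraries. The Dlg2 share goes from 5.50% and 5.05% at E12.5 to 30.5% and 36.0% at P0, and the Homer1 share from 27.5% and 26.3% to 53.7% and 57.1%.

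The Dlgap and Shank proteins, which link Dlg4 to Homer and actin, all rose from E12.5 to P0, 4 of 4 (27.1% of all genes tested rose). Dlgap1 went from 3.70 and 3.81 TPM at E12.5 through 6.47 and 6.24 at E14, 26.1 and 27.6 at E15.5 and 47.5 and 37.2 at E17 to 51.9 and 62.4 at P0. This was a change of 3.61 (SE 0.13, adjusted p 3.72e-10), of which 1.92 fell between E14 and E15.5, where no libraries overlapped. Dlgap4, more abundant and less changed, was at 44.2 and 45.0 TPM at E12.5, 56.6 and 54.7 at E14, 86.4 and 82.8 at E15.5, 115 and 86.3 at E17 and 102 and 99.3 at P0 (1.15, SE 0.11, adjusted p 1.96e-06). Shank1 was at 6.59 and 7.53 TPM at E12.5, 9.74 and 9.62 at E14, 25.8 and 27.2 at E15.5, 74.2 and 34.0 at E17 and 39.4 and 40.6 at P0, and its E17 libraries lay on either side of those of P0. Shank1 rose by 2.35 from E12.5 to P0 (SE 0.25, adjusted p 4.35e-06) and Shank2 by 2.13 (SE 0.15, adjusted p 1.38e-07), from 4.94 and 5.31 TPM to 24.9 and 26.8.

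Iqsec1, an exchange factor for Arf GTPases that acts in receptor recycling, was at 21.8 and 23.6 TPM at E12.5, 22.5 and 22.2 at E14, 20.4 and 18.3 at E15.5, 31.3 and 20.6 at E17 and 26.5 and 26.6 at P0. Its change of 0.22 from E12.5 to P0 was not called (SE 0.15, adjusted p 0.211). It passed at 0.50 with quantile normalization (adjusted p 0.00105) and at 0.49 with median-of-ratios scaling (adjusted p 0.00327), and at 0.22 without E17 replicate 1 (adjusted p 0.0176), without E17 replicate 2 (0.0173) and with only the 4 libraries of the 2 stages (0.0477).

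The 3 Homer genes, whose proteins tie group I metabotropic receptors and Shank to internal calcium stores, went different ways. Homer1 was at 59.3 and 57.3 TPM at E12.5, 62.8 and 64.0 at E14, 96.3 and 96.6 at E15.5, 102 and 106 at E17 and 92.6 and 112 at P0. Homer2 was at 81.0 and 79.3 TPM, 63.0 and 66.1, 34.1 and 32.1, 49.8 and 41.2, and 48.4 and 56.6. Homer3 was at 75.3 and 81.4 TPM, 71.5 and 71.9, 54.3 and 50.1, 52.9 and 39.5, and 31.6 and 27.8. At E12.5 Homer1 was thus the lowest of the 3, and from E15.5 on it was the highest in each library. From E12.5 to P0 Homer1 rose by 0.80 (SE 0.09, adjusted p 7.55e-06), while Homer2 fell by 0.61 (SE 0.11, adjusted p 0.000265) and Homer3 by 1.37 (SE 0.12, adjusted p 1.02e-06). Homer2 fell by 0.94 from E14 to E15.5 (adjusted p 2.4e-05) and rose again by 0.44 from E15.5 to E17 (adjusted p 0.013), where 3 of 20 alternatives did not call it. Homer1 made up 27.5% and 26.3% of the family's sum at E12.5 and 53.7% and 57.1% at P0, and Homer3 34.9% and 37.3% and then 18.3% and 14.1%. Exons of Homer3 share 25.4% of their bases with Ddx49 on the opposite strand, a gene at 28.6 and 30.8 TPM at E12.5 and 31.6 and 28.9 at P0; no source used here states whether the authors' counting used strand.

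Among the adhesion proteins, Nlgn1, Nlgn3, Nrxn2 and Nrxn3 all rose from E12.5 to P0. The neuroligins Nlgn1, found at excitatory synapses, and Nlgn3, found at both kinds, rose by 1.06 (SE 0.13, adjusted p 1.19e-05) and 1.39 (SE 0.11, adjusted p 3.56e-07). Nlgn1 was at 13.2 TPM in both E12.5 libraries, 12.6 and 13.7 at E14, 26.2 and 24.8 at E15.5, 37.4 and 30.5 at E17 and 25.6 and 31.9 at P0, so that its P0 libraries overlapped those of E15.5 and E17. Nlgn3 was at 9.34 and 9.29 TPM at E12.5 and 27.7 and 24.3 at P0; 41.2% of its exonic bases are shared with the same-strand annotation Gm21986. Nrxn2 was at 14.6 and 15.7 TPM at E12.5, 17.9 and 16.9 at E14, 35.3 and 38.7 at E15.5, 79.9 and 52.4 at E17 and 69.1 and 60.3 at P0. Nrxn3, much the lower, was at 1.202 and 1.15 TPM, 1.76 and 1.86, 4.66 and 4.95, 10.7 and 7.89, and 8.12 and 9.10. For both neurexins the libraries did not overlap between neighbouring stages up to E17, and those of P0 lay between the E17 ones. Nrxn2 rose by 2.02 (SE 0.16, adjusted p 3.04e-07) and Nrxn3 by 2.14 (SE 0.13, adjusted p 4.19e-08).

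By step, most of the change fell between E14 and E17; neighbouring steps share the libraries of a stage. From E12.5 to E14, 9 of the 34 genes rose and 0 fell (3.95% of all genes tested rose and 4.78% fell, 8.73% in all), led by Grik3 (0.90), Gria1 (0.78) and Dlg2 (0.75). Of these only Dlg2 was called in all 20 alternatives. From E14 to E15.5, 26 rose and 4 fell (18.4% and 33.3% of all genes tested, 51.7% in all), the median change was 0.85 against -0.13 for all genes, and 13 of the 34 changed by over 1; Dlgap1 (1.92), Grin2b (1.85) and Dlg2 (1.84) led the rises. In every alternative 28 of these 30 calls held, and that of Homer3 did not. It is also the step at which the meningeal, blood and choroid plexus markers dropped, and the part of that drop in the result was not tested. From E15.5 to E17, 25 rose and 0 fell (14.4% and 10.6%, 25% in all), with a median of 0.67 against 0.01. Without E17 replicate 1 these medians were 0.40 and -0.05, and without E17 replicate 2 they were 0.80 and 0.09. Of the 25 calls, 8, among them those of Dlg2, Gabra3, Gabra5, Gria2 and Grm5, held in every alternative. In the F test over the 5 stages 31 of 34 passed, against 82.9% of all genes tested.

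From E17 to P0, 3 of the 34 genes rose and 7 fell. Gabra5 (1.41), Dlgap1 (0.43) and Dlg2 (0.35) rose, and 7 genes fell: Grik3 (-0.90), Grin2b (-0.80), Grik2 (-0.63), Homer3 (-0.61), Gria2 (-0.58), Gria1 (-0.53) and Dlg1 (-0.42). Of all genes tested, 12.9% rose and 28.8% fell, 41.7% in all, and the median change was -0.01 for the group and -0.10 for all genes. Leaving out E17 replicate 1 gave a median of 0.17 for the group, and leaving out replicate 2 gave -0.24. All ionotropic glutamate receptor genes in the table, 5 of 5, were among those that fell. Of these, the fall of Grin2b was called in only 9 of 20 alternatives, and its change was -0.17 without E17 replicate 1. Neither of the GABA-A receptor subunits Gabra3 and Gabra5 was among those that fell. The metabotropic glutamate receptors Grm2, Grm3 and Grm5, the Dlgap and Shank genes and the neuroligins were not among them either. The difference between the glutamate and the GABA-A receptor genes was not tested. The split of 3 higher and 7 lower became 10 higher and 6 lower under quantile normalization and 10 higher and 7 lower under median-of-ratios scaling. Over all genes tested, 781 higher and 1744 lower became 1256 and 1187 under the first and 1292 and 1369 under the second.

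The steps to and from E17 rested on libraries that differed from one another. Over all genes, replicates of E17 differed with an SD of 0.285 (log2), against 0.0880 to 0.176 for the replicates of other stages. At E17, 30 of the 34 genes were higher in replicate 1 than in replicate 2, by a median of 0.32, as were 72.0% of all genes, by a median of 0.16. The widest gaps were those of Grin2b (2.41-fold), Shank1 (2.18-fold), Grm3 (2.06-fold) and Grik3 (1.90-fold), while Gabra5, Gabra3 and Homer1 were among the few lower in replicate 1. Across the 34 genes the difference between the E17 libraries had a Pearson correlation of 0.44 and a Spearman correlation of 0.29 with the log2 length of the longest annotated transcript, and across all genes tested 0.52 and 0.50; genes of 1 pair of libraries share those libraries and are no replicates. The neuron markers summed to 8832 and 8950 TPM in the same libraries. Without E17 replicate 1, 14 of the 34 genes rose from E17 to P0 and 6 fell; without replicate 2, 1 rose and 18 fell. Over all genes tested, 1061 rose and 1493 fell without replicate 1, and 1051 rose and 2716 fell without replicate 2. Gria1, Gria2, Grik2, Grik3, Homer3 and Dlg1 fell, and Gabra5 rose, in both of these fits. The highest mean was at E17 for 17 genes and at P0 for 12. Without E17 replicate 1 it was at E17 for 8 and at P0 for 19, and without E17 replicate 2 at E17 for 19 and at P0 for 11.

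**Figure D4:**
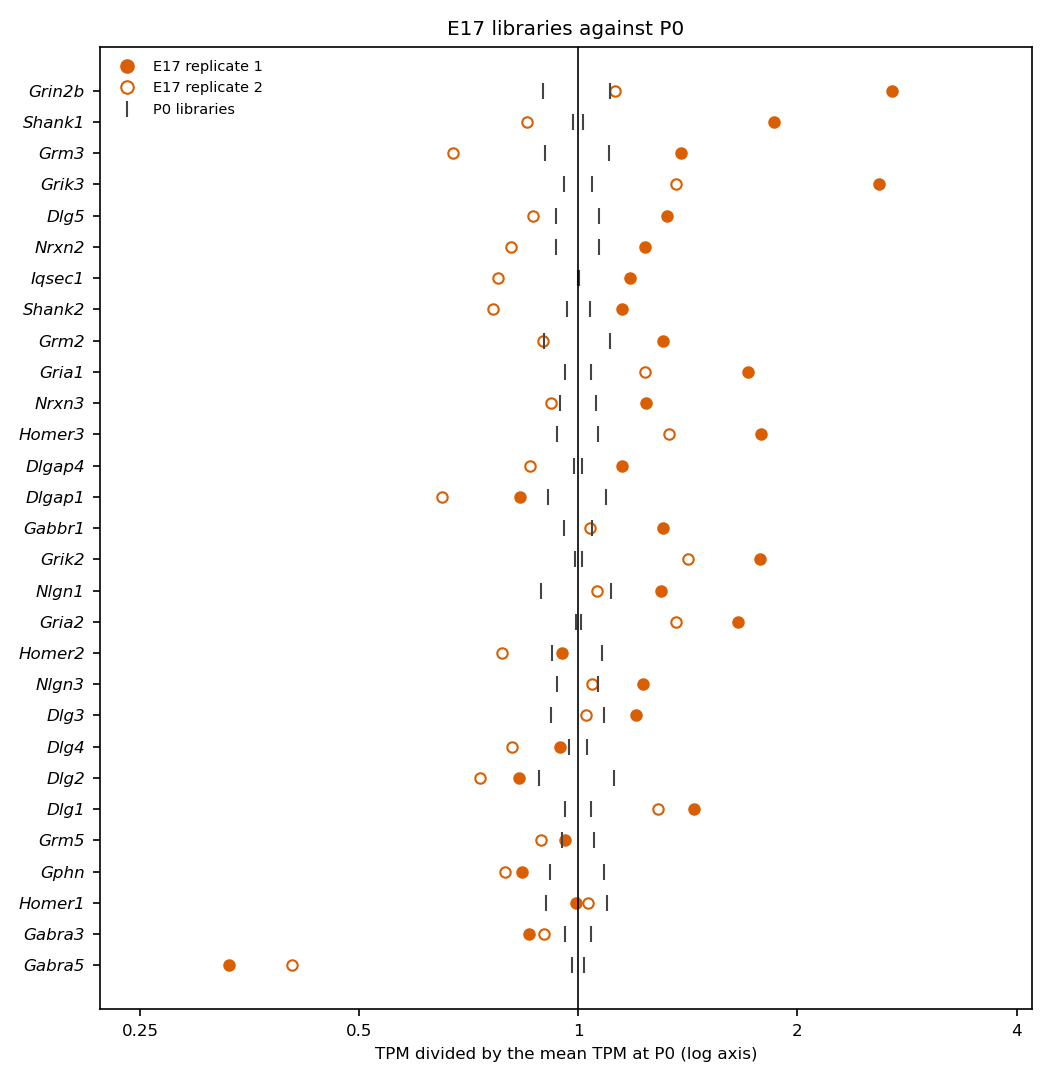
Level of 29 of the 34 genes in the E17 libraries (filled circle replicate 1, open circle replicate 2) and the P0 libraries (bars), divided by the gene's mean TPM at P0, on a log axis; genes are ordered by the difference between the E17 libraries, with the largest at the top. For 26 of these genes the filled circle is to the right of the open one. Gabra5 lies to the left of its P0 level in both E17 libraries. Gria1, Gria2, Grik2, Grik3, Grin2b, Homer3 and Dlg1 are among the genes that lie to the right in both.

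The balance of the AMPA receptor subunits was compared within libraries. The log2 ratio of Gria1 to Gria2, which bears on the calcium permeability of AMPA receptors, was -1.08 and -0.93 at E12.5, -0.38 and -0.80 at E14, -0.31 and -0.32 at E15.5, -0.64 and -0.82 at E17 and -0.61 and -0.75 at P0. Gria2 was above Gria1 in all 10 libraries, and the ratio did not pass the test between stages (exact permutation test, p 0.0677, adjusted over 3 ratios 0.0677). It passed without E14 replicate 1 (adjusted p 0.0201) and without E14 replicate 2 (0.00635).

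Other genes of the same synapses were followed as lists. Of 9 auxiliary proteins of AMPA and kainate receptors in the table, 7 rose from E12.5 to P0 and 0 fell (27.1% and 51% of all genes tested), with a median of 1.81 (all genes -0.27). The largest change was that of Prrt1 (3.89, SE 0.19, adjusted p 3.95e-09), from 1.75 to 40.2 TPM at the stage means, and the smallest that of Cacng7, an AMPA receptor regulatory protein (0.12, adjusted p 0.503). Of 21 postsynaptic signalling and spine proteins, 16 rose and 3 fell, with a median of 0.93, from Sipa1l1 (-0.75) to Camk2b, the beta subunit of calcium/calmodulin-dependent kinase II (4.45, SE 0.11, adjusted p 2.77e-11), which went from 17.2 to 396 TPM. Of 15 receptor trafficking proteins, 11 rose and 2 fell, with a median of 0.48, from the scaffold Magi1 (-1.03) to the motor Kif5a (2.24).

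On the inhibitory side, 5 of 12 genes listed as postsynaptic partners were in the table. From E12.5 to P0, 3 of them rose and 1 fell (27.1% and 51% of all genes tested). Their changes ran from Dag1, dystroglycan (-0.83), to Slitrk3 (1.42). The median, 0.25 (all genes -0.27), was the change of Mocs2, an enzyme of molybdenum cofactor synthesis and not a partner of the GABA-A receptor. Of 7 genes of GABA metabolism and chloride transport, 6 rose and 1 fell, with a median of 1.92. The gene that fell was Slc12a2 (NKCC1), which carries chloride into the cell (-0.96, SE 0.10, adjusted p 2.25e-06; 31.8 TPM at E12.5 and 15.8 at P0), and the largest rise was that of Slc6a11, a GABA transporter known from astrocytes (4.58, SE 0.15, adjusted p 1.76e-10; 1.22 and 52.0 TPM). Of 27 other synaptic adhesion genes, 14 rose and 8 fell, with a median of 0.33, from Ptprf (-1.85) to Cadm2 (3.12). From E17 to P0 16 of these 27 fell and 1 rose, against 28.8% and 12.9% of all genes tested.

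Many of the 34 genes are long, a feature the names did not use. Their median annotated span was 218 kb against 29.2 kb for all genes tested, and 25 of 34 spanned at least 100 kb (73.5%), against 16.4% of all. The longest were Dlg2 (1973 kb, chromosome 7, 90476672 to 92449247) and Nrxn3 (1612 kb, chromosome 12, 88722876 to 90334935), and the shortest Homer3 (11.5 kb, chromosome 8, 70282827 to 70294361). The median longest transcript was 6799 bases against 3676.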

How the data were processed

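Neocortex RNA of 5 stages was sequenced in 10 libraries, 2 per stage, prepared with a stranded mRNA kit per the labels' protocols. The authors deposited TPM, 1 column per library, for 6147 genes, per the file headers; STAR, Subread and GRCm38.p5 are named in the submitters' processing notes without role or order, and the annotation, counting strand, gene lengths and choice of genes are stated in no source used here. TPM keep no read depth, so the depth of each library is unknown, and the number of libraries limits the precision (median SE of a change 0.107 on the log2 scale). The genes in the table held 68.9% to 71.7% of the fixed total of a library, and 5990 to 6036 of them reached 1 TPM. Of the value columns, 0 were left without a sample.

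Values were taken as log2(TPM + 1), and 99 genes whose mean did not reach 1 TPM were removed. Fold changes on this scale understate changes of low genes. The test was limma 3.58.1 (R 4.3.3) fitted to all libraries together with a term for each stage (5 residual degrees of freedom), a variance trend and Benjamini-Hochberg adjustment over 6048 genes. Single ratios used the exact permutation test; of 10 ratios considered, 7 lacked a gene in the table and were not analysed here. The limma fit and the permutation test were tested on simulated data. The alternatives changed the scaling (quantile normalization or median-of-ratios), the pseudocount (0.1 or 10 TPM), the filter (none, or 5 TPM) or the model (array weights, no variance trend, a replicate block, only the 4 libraries compared) or left out each library in turn, 20 settings in all. Replicate numbers are in the libraries' titles, and deviations of same-numbered libraries had no consistent positive correlation over the pairs of stages, so they were not treated as pairs.

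The genes, lists and tests were chosen with earlier results of these data known. Of the 34 genes, 5 stand in the counts, medians and sums but are not reported here by name. Named were the other 29, with values per library for the highest, most and least changed gene of each family, genes of a ratio and lone genes of a family; of other lists, the most and least changed gene and markers standing beside a result. Positions and lengths are from GENCODE M21 (GRCm38), promoters from RefSeq (GRCm38.p6), and tables and plots were made in Python 3.11.15 (matplotlib 3.10.9, numpy 2.4.6, pandas 2.3.3).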

Additional observations from a re-analysis of the deposited data

How the results depend on the processing

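From E12.5 to P0 all 31 calls (27 higher, 4 lower) kept their direction and stayed under an adjusted p of 0.05 in each of the 20 alternatives, except that a minimum mean of 5 TPM left out 2 of them, among them Grm3. The single steps were less firm: 1 of 9 calls from E12.5 to E14, 28 of 30 from E14 to E15.5, 8 of 25 from E15.5 to E17 and 3 of 10 from E17 to P0 held in every alternative. From E12.5 to E14 the count of higher genes was 18 with array weights and 17 with only the 4 libraries of those stages, and that of lower genes 1 and 2, while calls over all genes went from 528 to 2411 and 2479; leaving out each library in turn gave 1 to 17 higher and 0 to 1 lower, with 1.07% to 29.2% of all genes called. From E15.5 to E17 it was 8 higher with only the 4 libraries (all genes 120 calls against 1514), and 15 to 29 higher and 0 to 1 lower with each library left out (7.71% to 52.3% of all genes called). From E17 to P0 it was 10 higher under quantile normalization and under median-of-ratios scaling, 1 with array weights and 1 with only the 4 libraries (all genes 1145 and 1126 calls against 2525), and 1 to 14 higher and 3 to 18 lower with each library left out (27.1% to 62.3% of all genes called). The ratio of Gria1 to Gria2 changed by 0.45 from E12.5 to P0 under quantile normalization, where it passed (adjusted p 0.0423), and by 0.25 to 0.40 with each library left out. The change of Dlg3 from E12.5 to P0 turned to 0.28 under quantile normalization and 0.26 under median-of-ratios scaling, and that of Dlg5 to 0.025 under quantile normalization; the causes were not tested. With each library left out, that of Dlg3, which was -0.0039, ran from -0.12 to 0.11. The median change of all genes from E12.5 to P0 was -0.27 as deposited, -0.05 under quantile normalization and -0.01 under median-of-ratios scaling, and the calls over all genes were 1641 higher and 3087 lower, 2214 and 2419, and 2292 and 2283.

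With the replicate number as a block, the counts were 9, 26, 24, 3 and 27 higher and 0, 4, 0, 7 and 4 lower over the 5 comparisons in the order of the stages, with E12.5 to P0 last. Of all 6048 genes, 226, 1079, 828, 735 and 1624 were higher and 236, 1925, 583, 1636 and 3052 lower in the same order. In all, 7.64%, 49.7%, 23.3%, 39.2% and 77.3% of all genes were called. Deviations of same-numbered libraries had correlations between -0.37 and 0.11 over the 10 pairs of stages. There was thus no consistent positive tie by number, but such correlations cannot show whether libraries were prepared together.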
